A study of Homo sapiens with 6 samples.

Results

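The genes KLK2, KLK3, FOLH1, STEAP1, STEAP2, TMPRSS2, SLC45A3 and HOXB13 mark the prostate luminal cell. They were followed by RNA sequencing in a human prostate cancer culture whose label is LNCaP. These 8 genes were chosen by symbol, and 5 of the 8 have a row among the 25969 genes of the tables. KLK2, STEAP2 and TMPRSS2 have no row and are not analysed here. The tables hold only genes with at least 2 reads over all libraries, and a gene without a row was not read as 0. There were 6 libraries: 3 came from cells transfected with a VIM-AS1 overexpression vector (genotype given as VIM-AS1 overexpressed), and 3 from cells given pcDNA3.1 vector, the plasmid control (genotype given as WT). VIM-AS1 is a long noncoding RNA transcribed antisense to the vimentin gene. The labels do not say whether the libraries of a group are separate cultures, so each p-value covers no more than library-to-library spread, possibly technical. The sources used here give neither culture medium nor androgen content.

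The androgen receptor is a nuclear receptor that moves to chromatin when it binds androgen. There it acts with the pioneer factor FOXA1 and with GATA2 and HOXB13, and switches on secretory genes of the prostate luminal cell. KLK3 encodes prostate-specific antigen, KLK2 a related secreted protease, FOLH1 the prostate-specific membrane antigen, TMPRSS2 a membrane serine protease, SLC45A3 the membrane protein prostein, and STEAP1 and STEAP2 membrane proteins of a metalloreductase family. HOXB13 is a homeobox factor of the posterior body that marks the prostate lineage. LNCaP, a widely used prostate cancer line that responds to androgen, is known for high levels of KLK3, KLK2, FOLH1, TMPRSS2 and STEAP genes.

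Recovered reads (deposited values turned back into whole reads) totalled 14762893 to 19889745 per library. VIM-AS1 had 2197, 2019 and 2763 normalized reads in the overexpression libraries, against 8.63, 1.22 and 5.53 in the controls (log2 fold change 8.80 ± 0.33, SE; limma with a third-library term, adjusted p = 2.57e-12), which checks the group labels. Since no strand setting is given, reads that VIM-AS1 shares with the antisense vimentin gene could not be told apart. The third library of each group deviated from the other libraries in the same way across genes (Pearson r = 0.843 over 13175 genes). Each difference is therefore given from limma without and with a term for the third libraries, and "rose" and "fell" mean an adjusted p under 0.05 with that term. The term was picked with results of these data known, and its SE and p-values may understate the error. Overexpression replicates 1 and 2 were the closest pair within a group. Their chi-square per degree of freedom on recovered reads was 7.14, against 41.4 to 69.2 for the other pairs. Over 20927 genes tested, limma called 0.0239% without the term (0.0143% higher, 0.00956% lower) and 19.4% with it (11.5% higher, 7.94% lower). Reads of mitochondrially encoded genes made up 5.57 to 7.06% of the overexpression libraries and 8.73 to 14.3% of the controls, and the part of this difference in the gene results was not tested.

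The data go against the label for KLK3, FOLH1 and STEAP1. In GRCh38 coordinates (GENCODE 29), KLK3 (ENSG00000142515) lies on chromosome 19 from 50854915 to 50860764, FOLH1 (ENSG00000086205) on chromosome 11 from 49146635 to 49208670, and STEAP1 (ENSG00000164647) on chromosome 7 from 90154375 to 90164829. KLK3 had 0 reads in all 3 overexpression libraries, and 2, 0 and 0 reads in control replicates 1, 2 and 3. That is 2 reads among 103759216 over the 6 libraries, or 0.0193 CPM. FOLH1 had 0 reads in each overexpression library, against 4, 2 and 0 reads in the controls. STEAP1 had 0, 0 and 1 reads in the overexpression libraries, against 1, 0 and 0 in the controls. A count of 0 allows up to 3 reads, which is worth 2.37 to 3.67 normalized reads depending on the library, so these 3 genes sat at or near the detection limit in both groups. No fold change is given for them. In overexpression replicates 1, 2 and 3, KLK3 and FOLH1 lay below 20717, 21041 and 21484 genes that had at least 1 read. By mean level per kb of exon, 99.2% of genes lay above KLK3, 95.4% above STEAP1 and 93.6% above FOLH1. The genes that define LNCaP in common use were thus at the detection limit or without a row, and the cells are called by their label only.

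**Figure D1:**
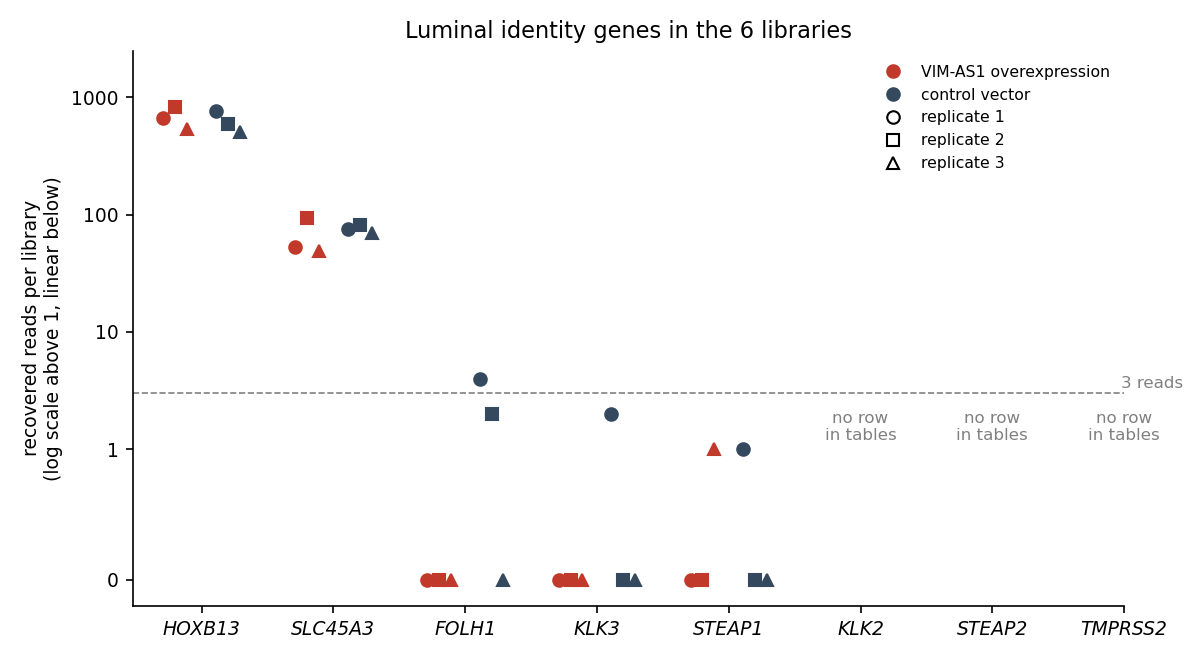
Recovered reads per library (y axis, log scale above 1 and linear below) of the 8 genes, for VIM-AS1 overexpression (red, left) and control vector libraries (dark, right), with 1 symbol per library. HOXB13 and SLC45A3 had reads in all 6 libraries, FOLH1, KLK3 and STEAP1 had 4 reads at most in any library, and 3 genes have no row in the tables; the dashed line marks 3 reads.

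The upstream sequences of the 2 kallikreins are shown because the KLK3 promoter is a textbook example of androgen receptor binding near a start site. SLC45A3 is shown as a member that did have reads. The 250 bases before each RefSeq start (GRCh38.p14), 5′ to 3′ on the gene's strand, are given with matches to NGAACAGCAAGTGCT in capitals. They lie at chr19:50854665-50854914 (plus strand) for KLK3, at chr19:50873189-50873438 (plus strand) for KLK2 and at chr1:205680510-205680759 (minus strand) for SLC45A3.
KLK3: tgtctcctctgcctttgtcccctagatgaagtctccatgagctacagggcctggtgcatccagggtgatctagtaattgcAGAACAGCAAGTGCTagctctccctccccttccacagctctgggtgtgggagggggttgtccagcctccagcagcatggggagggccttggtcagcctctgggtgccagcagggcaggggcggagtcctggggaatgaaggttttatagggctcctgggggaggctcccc
KLK2: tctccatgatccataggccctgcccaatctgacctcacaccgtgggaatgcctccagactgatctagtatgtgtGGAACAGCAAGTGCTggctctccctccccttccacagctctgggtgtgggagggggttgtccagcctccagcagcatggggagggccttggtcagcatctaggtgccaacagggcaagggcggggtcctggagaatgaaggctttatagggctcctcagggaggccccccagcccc
SLC45A3: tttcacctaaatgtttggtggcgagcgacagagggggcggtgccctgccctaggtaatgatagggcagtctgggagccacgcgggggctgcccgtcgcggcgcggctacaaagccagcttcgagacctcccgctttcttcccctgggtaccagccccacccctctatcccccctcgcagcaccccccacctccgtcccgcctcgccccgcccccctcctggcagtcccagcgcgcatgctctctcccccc

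The element in capitals started at position -170 from the KLK3 start and at position -176 from the KLK2 start. It was taken from the KLK3 sequence after it was seen, with the first base left free, and on both strands 2 of 35116 promoter windows of this length (0.0057%) hold it. The short receptor motif AGAACA, searched on both strands and contained in the KLK3 match, was found in 12.4% of windows and, among KLK3, KLK2, SLC45A3, STEAP1 and the 2 STEAP2 windows, in that of KLK3. The full palindrome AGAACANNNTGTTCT was in 1 of the 35116 windows and in none of those 6. A match or its absence says only which letters the window holds. No GENCODE 29 gene shares exon bases with any of the 8 genes. KLK2 and KLK3 are close paralogs, as are STEAP1 and STEAP1B and FOLH1 and FOLH1B, and the few reads of these genes cannot be assigned with certainty. STEAP1B, FOLH1B and the kallikrein pseudogene KLKP1 have no row in the tables.

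HOXB13 (ENSG00000159184, chromosome 17, 48724763 to 48729178 on the minus strand) was the most abundant of the 5 genes. It had 705, 807 and 545 normalized reads in overexpression replicates 1, 2 and 3, against 729, 720 and 401 in the controls. The groups overlapped, and the third library was the lowest of both groups. The means were 685.9 ± 132 in overexpression libraries and 616.6 ± 187 in controls (SD, n = 3 each). The log2 fold change was 0.19 ± 0.28 without the term (SE; limma, adjusted p = 0.83) and 0.19 ± 0.12 with it (adjusted p = 0.30). The 95% interval with the term ran from -0.058 to 0.43, so HOXB13 was not shown to differ between the groups. Leaving out control replicate 3 turned the value without the term to -0.10. The level was 197.8 ± 38.1 normalized reads per kb of exon in overexpression libraries and 177.9 ± 53.8 in controls, and 14.1% of genes lay above HOXB13 by mean level per kb.

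SLC45A3 (ENSG00000158715, chromosome 1, 205657851 to 205680459 on the minus strand) was detected in every library at a low level. It had 55.8, 92.1 and 50.1 normalized reads in the overexpression libraries, against 71.9, 99.0 and 55.3 in the controls. The groups overlapped, with replicate 2 the highest and replicate 3 the lowest of each. Between libraries of the same number, a pairing the labels do not state, SLC45A3 was lower in overexpression in 3 of 3 pairs. In limma with the replicate block its adjusted p was 0.52. The log2 fold change of SLC45A3 was -0.20 ± 0.34 without the term (SE; limma, adjusted p = 0.85) and -0.20 ± 0.24 with it (adjusted p = 0.62), with a 95% interval from -0.70 to 0.30. Its sign changed to 0.014 without the term when control replicate 2 was left out, and to 0.012 with the term when overexpression replicate 1 was. SLC45A3 stood at 17.8 ± 6.15 normalized reads per kb in overexpression libraries and 20.4 ± 5.95 in controls. Per kb, HOXB13 was above SLC45A3 in all 6 libraries, with 115.7 as the lowest HOXB13 value and 26.7 as the highest SLC45A3 value. FOLH1, STEAP1 and KLK3, with means per kb of 0.274, 0.203 and 0.0689 over the 6 libraries, followed and cannot be ranked among themselves at 2 to 6 reads each.

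HOXB13 and SLC45A3, the 2 of the 8 genes with reads in every library, were called in neither direction. Of all tested genes, 19.4% were called with the term and 26.6% with the replicate block, and 2 genes are too few to set against these shares. Neither HOXB13 nor SLC45A3 was called in limma without the term, with it or with the replicate numbers as a block, nor in edgeR, DESeq2 or limma-voom, and neither had an unadjusted p under 0.05 in limma with or without the term. FOLH1 passed the filter on low values through its 6 control reads alone, and its test is not read. KLK3 and STEAP1, with means under 1, did not pass that filter. In bulk RNA, fewer cells that express a gene and less RNA per cell cannot be told apart.

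The partner factors FOXA1 and GATA2 had reads in every library. FOXA1, a pioneer factor that opens chromatin for the receptor, averaged 107.3 ± 16.2 normalized reads in overexpression libraries and 93.9 ± 18.0 in controls (SD, n = 3 each; limma, adjusted p = 0.54 with the term). GATA2, another factor that acts with the receptor, rose, at 1176 ± 263 normalized reads against 881.7 ± 178 in controls (log2 fold change 0.41 ± 0.10, adjusted p = 0.0070 with the term; 0.51 when it was omitted), with ranges that overlapped.

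Of a list of 21 tested genes of receptor signalling, with partner factors and coregulators, 7 rose, CREB3L4 fell and 13 did not pass in limma with the term, and none passed without it. Their median log2 fold change was 0.29, against -0.02 over all tested genes. Besides GATA2, those that rose included ETV1, an ETS factor (0.996 ± 0.26, SE; 63.3 ± 14.5 normalized reads against 31.5 ± 8.74 in controls), SMARCA4, the ATPase of a chromatin remodelling complex (0.62 ± 0.11), MED1, a Mediator subunit that binds nuclear receptors (0.49 ± 0.15), and EP300, a histone acetyltransferase (0.44 ± 0.11). CREB3L4, a membrane-bound transcription factor abundant in prostate, fell (-0.39 ± 0.11). With the replicate block 9 of the 21 rose and 2 fell, with 15.8% and 10.8% of all tested genes called higher and lower. With the third-library term those shares were 11.5% and 7.94%.

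Genes known to be induced by androgen, listed apart from the luminal identity genes, were present and went both ways. Of a list of 30, 25 have a row and 24 were tested. In limma with the term 6 rose, 3 fell and 15 did not pass, and none passed without it. The shares of all tested genes called with the term were 11.5% higher and 7.94% lower. The median log2 fold change of the list was 0.215 with the term. Between libraries numbered 1 and 2 it was 0.10, and between those numbered 3 it was 0.35. With GC and exon length trends removed, 1 gene rather than 3 was called lower. FKBP5, a co-chaperone of steroid receptors and a common readout of receptor activity, had 411, 408 and 616 normalized reads in the overexpression libraries, against 280, 231 and 321 in the controls. No overexpression library lay within the range of the controls, and FKBP5 rose (0.77 ± 0.13, SE; adjusted p = 0.000296 with the term, 0.22 without it). SORD, which oxidises sorbitol, had 970, 1016 and 1072 normalized reads against 590, 599 and 550 in the controls, and rose (0.81 ± 0.11, adjusted p = 3.47e-05 with the term, 0.12 without it). CENPN, a centromere protein, rose (0.85 ± 0.11), with 577, 626 and 761 normalized reads against 356, 327 and 403 in controls. The prostaglandin receptor gene PTGER4 (0.93 ± 0.29) and the kinase gene CAMKK2 (0.40 ± 0.11) rose as well.

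The 3 androgen-induced genes that fell were low in both groups. EAF2, an elongation factor partner, averaged 8.83 ± 3.89 normalized reads in overexpression libraries and 25.6 ± 10.5 in controls (log2 fold change -1.41 ± 0.43, SE). GNMT, a glycine methyltransferase, had 12.6, 23.5 and 25.6 normalized reads in the overexpression libraries, against 48.0, 42.8 and 46.6 in the controls (-1.17 ± 0.32). C1orf116 averaged 35.6 ± 7.09 in overexpression libraries and 79.4 ± 11.9 in controls (-1.14 ± 0.24). None of the 5 androgen-repressed genes listed (UGT2B15, UGT2B17, UGT2B11, OPRK1 and BCHE) has a row. ACP3, the gene of prostatic acid phosphatase, had 3 reads in control replicate 1 and 0 in the 5 other libraries, and KLK4 has no row.

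**Figure D2:**
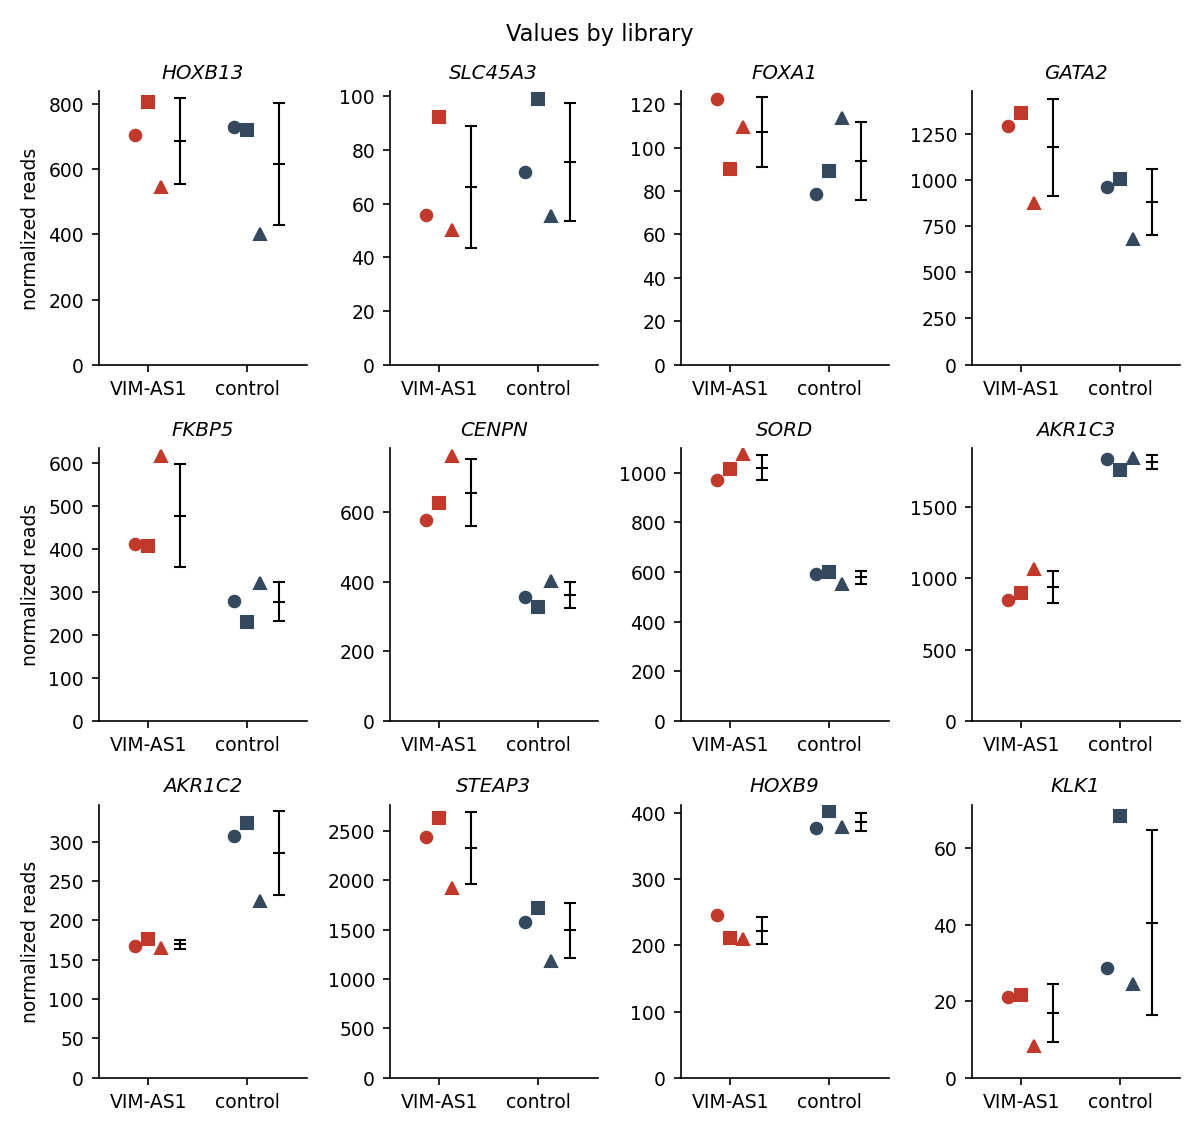
Normalized reads (y axes, from 0) of 12 genes in VIM-AS1 overexpression (left, red) and control libraries (right, dark), with circles, squares and triangles for replicates 1, 2 and 3 and black bars for the mean ± SD. HOXB13, SLC45A3 and FOXA1 overlap between groups, whereas FKBP5, CENPN, SORD and STEAP3 sit higher and AKR1C3, AKR1C2, HOXB9 and KLK1 lower in all 3 overexpression libraries.

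Of 11 tested genes that make or clear androgens, 2 rose, 4 fell and 5 did not pass in limma with the term, and none passed without it. Over all tested genes, 11.5% were called higher and 7.94% lower with the term. AKR1C3, a reductase that forms testosterone from androstenedione, had 848, 898 and 1062 normalized reads in the overexpression libraries, against 1838, 1756 and 1842 in the controls. No library of a group reached the range of the other group, and AKR1C3 fell (log2 fold change -0.96 ± 0.10, SE; adjusted p = 4.45e-06 with the term, 0.090 without it). AKR1C2, a reductase that inactivates dihydrotestosterone, fell as well, with 168, 176 and 165 normalized reads against 308, 324 and 224 in controls (-0.73 ± 0.14, adjusted p = 0.00134 with the term). AKR1C1 (-1.47 ± 0.49) and the sulfotransferase gene SULT2B1 (-1.27 ± 0.35) also fell. The AKR1C genes are related neighbours on chromosome 10, and counting may have moved reads between them, which was not tested. Over all libraries AKR1C3 had 8445 reads, AKR1C2 1370 and AKR1C1 129. SRD5A3 (0.69 ± 0.18), a steroid reductase family member of the dolichol pathway, and STS (0.61 ± 0.16), the steroid sulfatase, rose. The list's median was -0.17 with the term, -0.41 between libraries numbered 1 and 2, and 0.083 between those numbered 3.

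The families of KLK3 and STEAP1 differed in how many members were present. Of the 15 kallikrein genes, 5 have a row, 2 of these (KLK3 and KLK5) never exceeded 3 reads, and none exceeded 10 reads in every library. KLK1, tissue kallikrein, had 21.1, 21.6 and 8.19 normalized reads in overexpression libraries, against 28.8, 68.4 and 24.5 in controls, and fell (-1.18 ± 0.37, SE; adjusted p = 0.030 with the term in limma, 0.34 without it). Of the 4 STEAP genes, STEAP3, a ferrireductase of endosomal iron uptake, was abundant at 2434, 2628 and 1925 normalized reads in overexpression libraries, against 1579, 1721 and 1184 in controls. STEAP3 rose (0.64 ± 0.10, adjusted p = 0.000165 with the term, 0.25 without it). STEAP4 had 14.7, 14.7 and 13.3 normalized reads against 24.9, 17.1 and 23.7 in controls and did not pass (adjusted p = 0.33 with the term). Among membrane serine proteases of the TMPRSS2 kind, TMPRSS3 (-0.44 ± 0.12) and the hepsin gene HPN (-1.18 ± 0.37) fell and the matriptase gene ST14 (0.31 ± 0.10) rose. Over the 10 tested relatives the median log2 fold change was -0.59, and 2 rose, 3 fell and 5 did not pass. Low-count genes weigh in this median: over all libraries KLK6 and KLK14 had 18 reads each, TMPRSS4 56 and NAALAD2 58. STEAP3, ST14 and TMPRSS3, the relatives with the most reads, went both ways. Among all tested genes 11.5% were called higher and 7.94% lower with the term. With GC and exon length trends removed, 1 relative rather than 3 was called lower.

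Genes beside HOXB13, SLC45A3, TMPRSS2, STEAP1 and STEAP2 were also read. HOXB9, in the same homeobox cluster, had 245, 212 and 210 normalized reads in overexpression libraries, against 378, 403 and 379 in controls, and fell (-0.80 ± 0.13, SE; adjusted p = 0.000236 with the limma term, 0.15 without it). HOXB7 did not pass (-0.19 ± 0.14). PRAC1, a small gene next to HOXB13 known from prostate and colon, had 2, 1 and 0 reads in overexpression libraries and 0 in all 3 controls. NUCKS1, on chromosome 1 near SLC45A3, rose (0.50 ± 0.12), and ELK4, on the other side of SLC45A3, did not pass. HOXB9 and NUCKS1 were the 2 called among 13 tested neighbours of all these genes, a share no higher than the 19.4% called over all tested genes. Both lie near HOXB13 or SLC45A3, whose own tested neighbours are too few to set against that share. The 3 genes with a mean of at least 100 whose centred log2 values were nearest to HOXB13 over the 6 libraries were DDA1, EHBP1L1 and TPRA1, with root mean square differences of 0.04858, 0.04859 and 0.04997 among 9757 genes. Like HOXB13, all 3 were lowest in the third library of each group, and shared regulation was not tested.

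**Figure D3:**
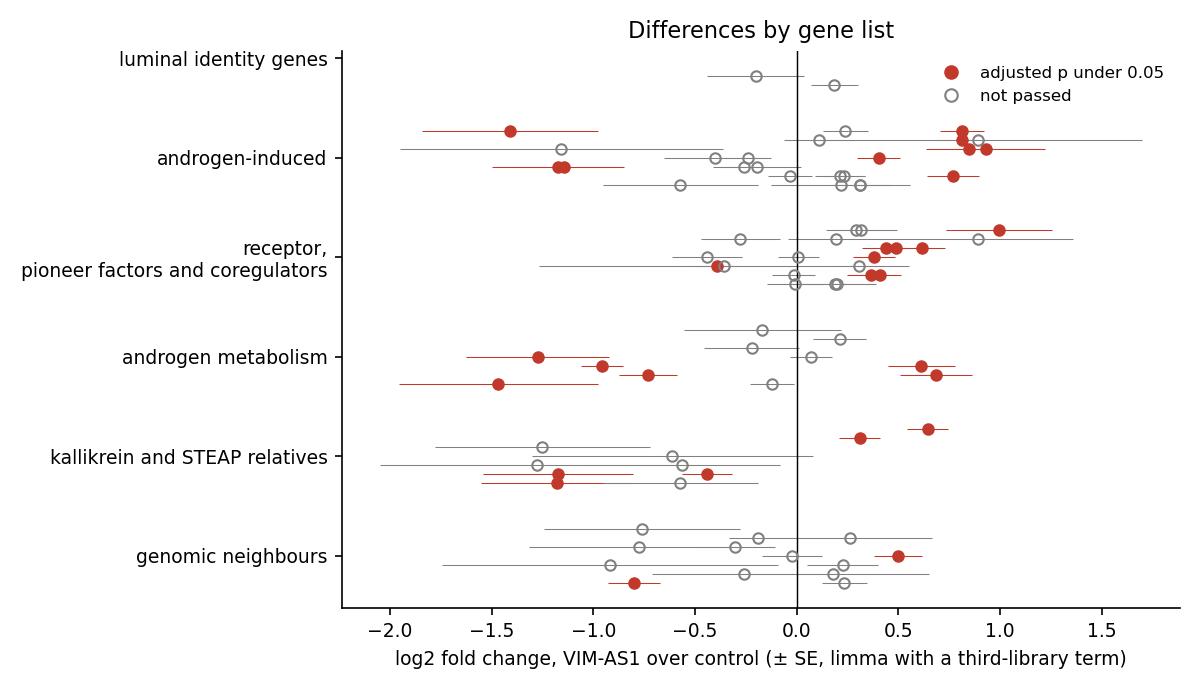
Log2 fold change of VIM-AS1 overexpression over control (x axis; points with SE bars, limma with a third-library term) for tested genes of 6 lists, spread vertically within a list for legibility and filled red where the adjusted p is under 0.05; FOLH1, at 0 in 1 group, is not drawn. HOXB13 and SLC45A3 are open, and the other 5 lists hold called genes on both sides of 0.

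In limma with the term, 40 of the genes followed singly were called, VIM-AS1 among them. Many of these calls were lost when a library was left out, 33 of 40 without overexpression replicate 3 and 31 without control replicate 3. For the other libraries 3 to 16 were lost, and no sign changed. Leaving out either replicate 3 left the term carried by the other replicate 3 alone, which was then fitted exactly. Those fits therefore compared only the first and second libraries of each group. Their losses cannot be set against those for the other libraries. The 7 that kept the call whichever library was left out were VIM-AS1, CENPN, SORD, AKR1C2, AKR1C3, SYP and DCN.

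Luminal markers ran from genes near the top of the tables to genes near 0. KRT8 and KRT18, the keratins of luminal cells, ranked 61 and 90 by level per kb, and neither was shown to differ between groups (limma with the term, adjusted p = 0.76 and 0.37). CD24 had 847 to 1737 reads. KRT19 had 1 read at most in any library, CLDN3 has no row, and CDH1, the epithelial cadherin, had 10 to 32 reads. Of the 9 luminal markers 8 have a row, and their summed level was 69365 to 122568 normalized reads in overexpression libraries and 77377 to 139879 in controls. KRT8 and KRT18 made up most of that sum. The basal keratin KRT5 had at most 4 reads and TP63, a basal factor, 3 to 12 reads in overexpression libraries and 17 to 49 in controls. KRT17, a keratin of basal cells, stood at 17309 ± 5029 normalized reads in overexpression libraries and 12933 ± 3571 in controls, and CD44, CAV1 and ITGB4 had 766 reads or more in every library. All 9 basal markers have a row, and they summed to 16733 to 25842 normalized reads in overexpression libraries and 13752 to 20929 in controls. Most of that sum was KRT17, and without it the ranges were 4992 to 5199 in overexpression libraries and 4344 to 5225 in controls.

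Markers of other cell types were near 0 for some genes and abundant for others. Of 10 neuroendocrine markers 5 have a row, CHGA had at most 2 reads, and their sum was 757.2 to 1223 normalized reads in overexpression libraries and 765.4 to 1176 in controls, most of it ENO2. SYP, synaptophysin, fell (log2 fold change -2.14 ± 0.31, SE; limma with the term). Of 9 fibroblast markers 7 have a row. LUM and COL1A2 had at most 2 reads and COL1A1 had 827 to 1806. In limma with the term, DCN (-1.30 ± 0.16), PDGFRB (-0.58 ± 0.11) and COL1A1 (-0.46 ± 0.12) fell and THY1 rose. This list summed to 1795 to 2563 normalized reads in overexpression libraries and 2876 to 3721 in controls, without overlap. Of 7 blood and endothelial markers PTPRC and CD3E have no row, and the 5 with a row summed to 65.5 to 108.8 normalized reads in overexpression libraries and 35.5 to 74.5 in controls, most of it VWF, which rose (1.10 ± 0.25, SE; limma with the term). Among the basal markers KRT15 and TP63 fell and KRT17 rose, and CLDN4 was the luminal marker that fell. The part of these marker differences in the gene results was not tested.

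**Figure D4:**
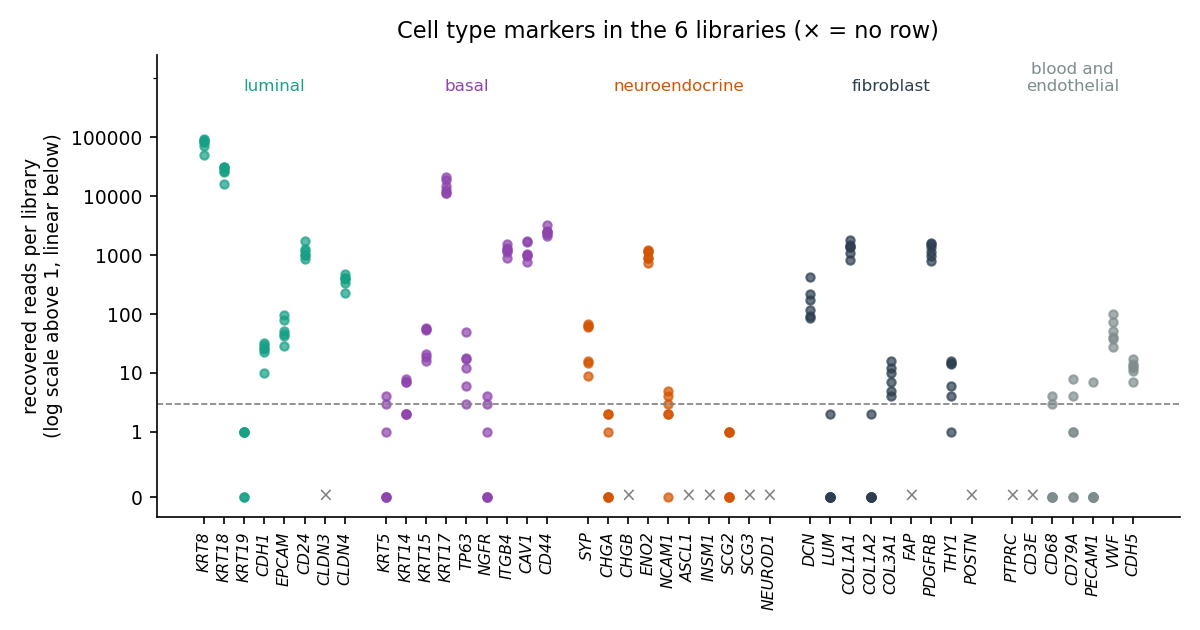
Recovered reads in each of the 6 libraries (y axis, log scale above 1 and linear below; 1 point per library, both groups together) for most of the listed markers of 5 cell types, with a cross for a gene without a row and a dashed line at 3 reads. KRT8 and KRT18 lie highest, KRT17, CD44 and CAV1 of the basal list have 766 reads or more in every library, and KRT19, KRT5 and CHGA are at 4 reads or fewer.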

How the data were processed

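The 6 libraries of cells labelled LNCaP fall into 2 groups of 3, grouped by the sample titles. The tools named are fastp, HISAT2 and featureCounts with the build hg38, per the submitters' processing notes. The sources used here give no annotation, strand setting or version. The deposited values are a signal per gene, each library's counts over its own factor. In every library 100% of values lay within 0.01 read of a multiple of its smallest step. Those multiples are called recovered reads here. Library totals ran from 14762893 to 19889745 recovered reads, and a count of 0 allows up to 3 reads, counting error only. Each of the 25969 genes has at least 2 reads over the 6 libraries.

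Symbols came from the gene name table and lengths and positions from GENCODE 29 (GRCh38). Differences were tested with limma 3.58.1 (R 4.3.3; intensity trend, two-sided, Benjamini-Hochberg adjustment) after taking log2(value + 1), over 20927 genes whose mean was 1 or more. That fit was run without and with a term for the third library of each group, since earlier results of these data had shown that the third libraries deviate together. The raw-count test edgeR 4.0.16 and DESeq2 1.42.0 were run on recovered reads as alternatives. Same-numbered libraries deviated from their group means together (Pearson r of 0.319, 0.724 and 0.843 across 13175 genes for numbers 1, 2 and 3), so the numbers were also used as a replicate block. The pairing was not clean for number 1: overexpression 1 correlated more with control 2 (0.418) than with control 1, and overexpression 2 with control 1 gave 0.328. The 4 pairs of a library numbered 3 with a library numbered 1 or 2 gave -0.772 to -0.407.

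The members and the gene lists were chosen with earlier results of these data known. Genes were named by rule: all members, VIM-AS1, up to 4 called genes per list with the largest absolute log2 fold change, relatives of members, the defining markers, and a few fixed genes (FOXA1, GATA2, FKBP5 and KLK4 among them). KLK4 has no value here, and CENPN, SORD, CAMKK2, ACP3, CREB3L4, SRD5A3, STS, PRAC1, HOXB7, ELK4 and further markers were named after their values were seen or to account for a small count. The rule for genes most like KLK3 could not be applied to a gene with 2 reads in total, and HOXB13 took its place after its values were seen. A few genes that count toward list totals are not reported here by name. Promoters came from RefSeq (GRCh38.p14).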

Additional observations from a re-analysis of the deposited data

How the results depend on the processing

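The count of luminal identity genes called, 0 higher and 0 lower among too few genes to set against a share, was the same under every alternative run. The numbers of all tested genes called higher, and of all tested genes called lower, were not, and are given in that order. Without the third-library term limma called 3 higher and 2 lower, and 15 and 13 with library size scaling, 5 and 12 with no filter, and DESeq2 called 133 and 220. With the replicate block limma called 3315 and 2256, with the third-library term 2403 and 1662, and with the first and second libraries of each group alone 620 and 481. With the term, edgeR called 2479 and 1799, removal of GC and length trends gave 3151 and 1430, TMM scaling 2395 and 1653, and library size scaling 1745 and 1525. The last 2 were added after the data were seen. Leaving out 1 library gave 2 to 10 higher and 0 to 31 lower without the term, and 143 to 2825 higher (all tested genes called higher) and 145 to 1668 lower (all tested genes called lower) with it. With the term the counts were 1793 and 1122 without overexpression replicate 1, 1468 and 1123 without replicate 2, 2410 and 1454 without control replicate 2, and 366 and 252 without control replicate 3. Without overexpression or control replicate 3, the term was carried by the other replicate 3 alone. Those fits compared only the first and second libraries of each group, so their counts cannot be set against the others. The cause of the remaining differences was not tested. With 1 library left out, the HOXB13 log2 fold change ran from -0.10 to 0.34 without the term, and the SLC45A3 log2 fold change from -0.46 to 0.014 without it and from -0.395 to 0.012 with it. Without the term, the KRT8 log2 fold change ran from -0.35 to 0.17, and was 0.078 without control replicate 2. The KRT18 log2 fold change ran from -0.44 to 0.085, and was 0.023 without control replicate 2. KRT18 passed with the term under library size scaling (-0.26, adjusted p = 0.0479, limma) and without control replicate 1 (-0.34). The block called no luminal identity gene. At 2 to 6 reads in all, KLK3, STEAP1 and FOLH1 are limited by depth, and a difference between groups was not detectable for them.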
